A study of Mus musculus with 23 samples.

Results

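Brown adipose tissue (BAT) of control mice was compared after 6 h at 4°C and at room temperature (RT), gene by gene, on normalized read counts. The comparison took the 11 control libraries of the 23 in the series: 5 mice labelled control at 4°C and 6 labelled control at RT, chosen by these labels alone. All were males of the C57BL/6 strain, 8 to 12 weeks of age, of the genotype Mcu[fl/fl]. Exon 2 of Mcu, the gene of the pore of the mitochondrial calcium uniporter, was thus flanked by loxP sites in both groups, and neither carried the transgene in which the Ucp1 promoter drives Cre recombinase. The line was made in ES cells of a mixed 129/BL6 background and then crossed to C57BL/6J.

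The mice at 4°C were housed singly in cooled cages that had no bedding, with water, and without food unless otherwise stated. In general the colony was kept in groups at room temperature on standard chow, and the sources used here do not give the housing or feeding of the RT mice over the same hours. Whether food, bedding or single housing differed between the groups is therefore not known, and any such difference cannot be told apart from temperature. The study set the same exposure beside BAT-Mcu-KO mice, which had lost Mcu in brown adipocytes, to ask whether the uniporter shapes the response to cold. Each library came from the BAT of a different mouse.

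BAT makes heat. In the cold, sympathetic nerves release norepinephrine, which acts on β-adrenergic receptors of the brown adipocyte, raises cAMP and activates protein kinase A. Lipid droplets are then broken down, the fatty acids fuel mitochondria and open UCP1, which lets protons leak across the inner membrane, and transcription factors such as CREB act on the nucleus. The tissue also takes up lipoprotein fat and glucose, and it holds blood vessels, nerves, fibroblasts and immune cells beside its adipocytes.

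The libraries held 11724234 to 17394689 reads at RT and 7129271 to 18728637 at 4°C, with mouse 1 at 4°C the shallowest. Cold mice 1, 2 and 3 held 7129271, 8749379 and 10492967 reads, each fewer than any RT mouse. Mice 4 and 5 at 4°C held 18728637 and 14974415. The group means of log2 depth did not differ beyond the spread of the mice (two-sided exact permutation test, p = 0.416). The smallest value that 5 against 6 mice allow in this test is 0.00433. The mean share of mitochondrially encoded transcripts did not differ either, at 23.1% to 34.5% at RT and 28.6% to 38.1% at 4°C (exact permutation test, p = 0.506). Of 12 brown adipocyte markers all were measured, 4 of them higher and 5 lower (median -0.28, and 5 called without the muscle-rich mice of the next paragraph). Their summed normalized count was 203169 to 287505 at RT and 297606 to 368807 at 4°C, and the mean of Ucp1 within it was 101346 higher at 4°C. Mcu, targeted only in the other genotype, was at 81.4 to 136 at RT and 70.8 to 132 at 4°C (-0.05 ± 0.23, adjusted p = 0.880).

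Skeletal muscle transcripts set libraries apart within both groups. The sum of 14 muscle genes, among them skeletal actin and fast myosins, was 85.0, 56348, 74.7, 19081 and 46709 in mice 1 to 5 at 4°C, and 80.4 to 8935 at RT. Mice 2, 4 and 5 at 4°C were thus above every RT mouse, whereas mice 1 and 3 at 4°C lay near the lowest of them. Acta1, skeletal actin, stood at 20.2, 12561, 0, 4372 and 10761 in these mice. None of the 14 genes was called by limma, while edgeR called 7 and DESeq2 3 of them, and limma 6 without mice 2, 4 and 5. Where the number of called members of a list below moved by over 1.5-fold without these 3 mice, that number is given too. Of 12 lymphocyte markers 2 were measured, of 9 neutrophil markers 1, and of 12 macrophage markers 11.

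At an adjusted p under 0.05, 46.0% of the 14651 genes tested were called changed, 22.3% higher and 23.7% lower at 4°C. At least a 2-fold change was called higher for 7.44% and lower for 9.55%. The largest steps upward outnumbered those downward, with 39 genes called at a log2 fold change of 4 or more and 7 at -4 or less, although at 2 or more and -2 or less the counts were 236 and 271. Small steps were common too: 1497 called genes, 22.2% of those called, moved by less than 0.5 on the log2 scale. Over all genes the median of the log2 fold changes was -0.02, and their median size without sign 0.45. Scaling each library to its 75th percentile moved the median to -0.13, and the share of calls that were higher from 48.5% to 38.2%, so the changes below are read against that shift. A fold change refers to log2(normalized count + 1), which understates the change of low genes. Without the 3 muscle-rich mice, which leaves 2 mice at 4°C, 4908 genes were called, 4568 of them also called in the same direction with all mice.

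The genes are described by 42 lists of pathways, and their members are spread out in the plot of list members. Lists and members were chosen with earlier results of these data known, so their counts and ranks describe them and test no pathway. Values of single genes at 4°C are given for mice 1 to 5 in that order, values at RT as the lowest, the median and the highest of 6, and brackets give the log2 fold change ± SE with its adjusted p. The counts of a list are read against the 22.3% higher and 23.7% lower of all genes. In 25.2% of all genes the groups did not overlap. Many named genes were picked for large changes in these same mice, so their lack of overlap only describes them. In whole tissue, fewer cells of a type and less RNA per cell cannot be told apart.

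**Figure D1:**
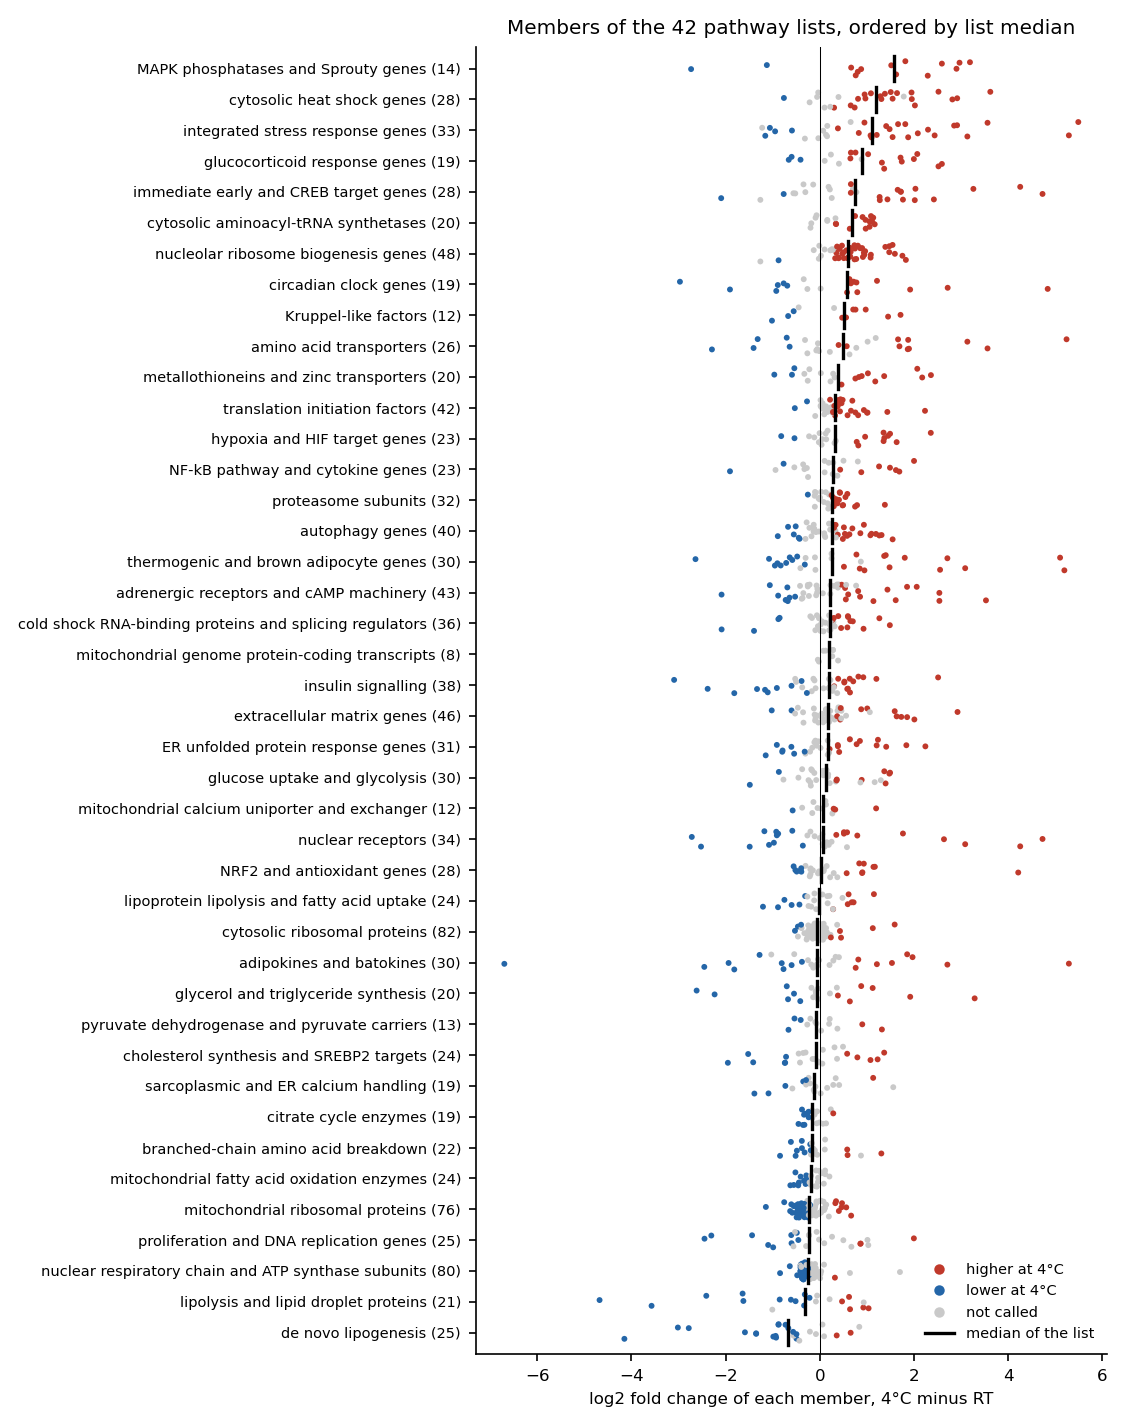
Log2 fold change of each measured member (points, horizontal axis, 4°C minus RT) in 42 gene lists (rows, number measured in brackets), ordered by the list median (black bars). Red and blue points passed the test, grey points did not, and medians run from 1.57 for MAPK phosphatases and Sprouty genes to -0.67 for de novo lipogenesis.

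The receptors and enzymes that carry the adrenergic signal changed in both directions. Of 43 measured genes of adrenergic receptors and cAMP machinery, 14 were higher and 8 lower, with a list median of 0.22. Adrb3, the β3-adrenergic receptor, did not pass the test (0.40 ± 0.25, adjusted p = 0.199), with values of 728 to 1386 at RT and 1042 to 1923 at 4°C. Adcy3, an adenylyl cyclase, rose from 730.1, 795 and 1068 at RT to 4503, 4009, 5652, 4391 and 5672 at 4°C (2.54 ± 0.22, adjusted p = 9.01e-10). Every cold mouse was above every RT mouse. Adcy9, another cyclase, fell from 234, 312 and 409 to 50.6, 74.4, 80.9, 83.7 and 74.6 (-2.09 ± 0.17, adjusted p = 4.63e-10), likewise without overlap. The cAMP-degrading phosphodiesterases Pde4d (1.85 ± 0.17, adjusted p = 1.79e-09) and Pde7b (2.06 ± 0.15, adjusted p = 4.56e-11) rose in all 5 cold mice. The subunits of protein kinase A moved apart: the regulatory Prkar1a rose by 0.85 and the catalytic Prkaca fell by 0.69, and neither overlapped between the groups. Gpr3, a receptor that raises cAMP without a ligand, had 0 to 1 read in each RT mouse and 2, 6, 17, 22 and 23 reads at 4°C (adjusted p = 4.11e-06), so no fold is given.

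Genes that CREB or growth factor signals switch on quickly were mostly higher after 6 h. Among 28 measured immediate early and CREB target genes, 15 were higher and 2 lower (median 0.74). Nr4a1, an orphan nuclear receptor, went from 52.8, 118 and 256 at RT to 2937, 2223, 2736, 2053 and 2284 (4.25 ± 0.41, adjusted p = 5.41e-09). Nr4a3, its relative, went from 13.9, 24.9 and 158 to 1810.4, 715, 896, 952 and 954 (4.73 ± 0.51, adjusted p = 4.39e-08). In both genes the lowest cold mouse was above the highest RT mouse by several-fold. Fosl2, an AP-1 subunit, rose (2.42 ± 0.21, adjusted p = 1.15e-09), Sik1, a kinase that holds back CREB coactivators (2.02 ± 0.23, adjusted p = 9.20e-08), and Crem, a CREB relative (1.65 ± 0.12, adjusted p = 4.28e-11). Egr1 moved the other way, at 83.9, 254 and 1148 at RT and 50.6, 91.1, 73.4, 93.3 and 59.3 at 4°C (-2.10 ± 0.44, adjusted p = 3.62e-04), and the lowest RT mouse lay within the cold range. Fos, the classical immediate early gene, was at 9.32 to 385 at RT and 8.08 to 115 at 4°C and did not pass the test (adjusted p = 0.574). The groups overlapped widely.

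The MAPK phosphatases and Sprouty genes, whose products damp ERK, JNK and p38 signalling, had the highest median of all 42 lists, 1.57. All 14 measured members were called, 12 higher and 2 lower. The members had been chosen with earlier results of these data known, so neither rank nor count is a test. Dusp6, specific for ERK, rose from 193, 317 and 627 to 2312, 2891, 2371, 2079.7 and 2402 (2.90 ± 0.24, adjusted p = 4.42e-10). Dusp1 rose from 338, 498 and 1425 to 4296, 2654, 4009, 3373 and 3246 (2.59 ± 0.31, adjusted p = 2.29e-07). Spry4 rose from 33.8, 55.3 and 70.4 to 192, 325, 484, 624 and 704 (2.97 ± 0.27, adjusted p = 1.81e-09). None of these 3 genes overlapped between the groups. Dusp8, which acts on JNK and p38, rose from 12.0, 22.6 and 32.1 to 263, 161, 198, 212 and 189 (3.19 ± 0.24, adjusted p = 8.70e-11), while Dusp14 fell from 33.4, 44.9 and 82.7 to 12.1, 12.1, 7.47, 2.20 and 3.21 (-2.73 ± 0.43, adjusted p = 1.19e-05).

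The cAMP response element (CRE), TGACGTCA, is the site that CREB binds. It was searched for in the window from 250 bases before to 50 after the RefSeq start (GRCm38.p6), where 9982 of the 14651 genes had a window. As a palindrome it reads alike on both strands. It was present in 3.25% of the windows of tested genes (1.88% of all 27025 windows), in 4.20% of those called at least 2-fold higher and in 1.68% of those at least 2-fold lower. Among called genes with a log2 fold change of 2 or more it was in 8 of 150 windows, and at -2 or less in 3 of 177. The MAPK list held it in 2 of 12 windows, but the immediate early and CREB target list in only 1 of 19, that of Btg2, which was not called (-0.14 ± 0.28, adjusted p = 0.704). Of the genes named here it was also in the windows of Pnpla3, Hlf and Mrpl49, which fell, and of Cycs, which rose (0.32 ± 0.09, adjusted p = 0.00420). The call of Cycs was lost with libraries scaled to the 75th percentile (0.21, adjusted p = 0.0549) and with quantile normalization (0.14, adjusted p = 0.151). Dio2, Dusp8 and Dusp1 rose most of the named genes that held the element. Their stretches are shown with the match in capitals, 5′ to 3′ on the strand of the gene, all upstream of the start. They lie at chr12:90739086-90739173, minus strand (95 bases before the start), at chr17:26508568-26508655, minus strand (143 bases) and at chr7:142095300-142095431, minus strand (107 and 63 bases).
Dio2: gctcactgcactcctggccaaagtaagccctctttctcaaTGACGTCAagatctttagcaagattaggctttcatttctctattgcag
Dusp1: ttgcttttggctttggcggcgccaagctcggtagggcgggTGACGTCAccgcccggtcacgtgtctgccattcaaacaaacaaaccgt
Dusp8: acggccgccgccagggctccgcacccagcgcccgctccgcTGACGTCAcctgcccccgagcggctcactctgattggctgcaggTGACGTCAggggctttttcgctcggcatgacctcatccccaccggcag
Dusp8 held the element at 2 places. A match is a run of letters, and binding was not measured here. The core TGACG alone, which lies within the full element, was in 31.5% of the windows of tested genes and in 33.1% of those called at least 2-fold higher.

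Thermogenic and brown adipocyte genes split: 13 of 30 were higher and 10 lower (median 0.25). Ppargc1a, the coactivator of mitochondrial genes, stood at 419, 476 and 851 at RT and at 25446, 17496, 14141, 17609.9 and 21818 at 4°C (5.10 ± 0.23, adjusted p = 1.95e-14). Dio2, which makes active thyroid hormone inside the cell, stood at 187, 563 and 880.2 and at 19732, 16733, 17789.7, 19095 and 18165 (5.19 ± 0.34, adjusted p = 8.85e-12). Ucp1 began high, at 53146, 64626 and 70028, and reached 179020.0, 147868, 160203, 140888 and 198043 (1.37 ± 0.10, adjusted p = 1.01e-10). In these 3 genes the groups were apart. Ucp1 had the largest gain in mean count of any nuclear gene, 101346, and Dio2 and Ppargc1a had the larger folds. Elovl3, an elongase of very long chain fatty acids, rose (2.55 ± 0.29, adjusted p = 9.46e-08), and Kcnk3, a potassium channel of brown adipocytes (1.40 ± 0.10, adjusted p = 1.74e-11). Irf4, a transcription factor that partners Ppargc1a, varied widely among cold mice, at 5917, 1680.0, 1650.3, 3661 and 856, against 406, 558 and 1146 at RT (1.80 ± 0.47, adjusted p = 0.00256), and mouse 5 lay within the RT range.

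Regulators of the brown adipocyte went both ways. Pparg, the core factor of adipocyte differentiation, rose (0.51 ± 0.11, adjusted p = 6.43e-04), as did Zfp516, a factor of brown fat (0.85 ± 0.16, adjusted p = 1.35e-04), both without overlap. Cebpb rose with overlap (0.95 ± 0.31, adjusted p = 0.0133). Its call was lost without cold mouse 4 (0.71, adjusted p = 0.0633) and without the muscle-rich mice (0.34, adjusted p = 0.528). Cebpa, a master regulator of adipocyte differentiation, fell from 778, 874 and 1238 to 101, 162, 126, 195 and 176 (-2.64 ± 0.20, adjusted p = 1.09e-10). Ebf2, which specifies brown fat, fell from 745, 974 and 1280.0 to 514, 590.3, 551, 386 and 548 (-0.96 ± 0.15, adjusted p = 1.29e-05), and Prdm16 from 455, 485 and 755 to 229, 369, 290.0, 349 and 395 (-0.71 ± 0.18, adjusted p = 0.00206). None of the 3 overlapped between the groups. Esrrg, an orphan receptor that drives oxidative genes, fell by 1.08 with overlap of the groups (adjusted p = 3.57e-04). Cidea, a lipid droplet protein of brown fat, fell by 0.32 (adjusted p = 0.00919), a call lost with only control mice in the fit (adjusted p = 0.0589), with quantile normalization (adjusted p = 0.309) and without the muscle-rich mice (adjusted p = 0.182).

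Fat handling changed gene by gene. The list of lipoprotein lipolysis and fatty acid uptake had 6 members higher and 6 lower of 24, near the shares of all genes, with a median of -0.01. Lpl, the enzyme that releases fatty acids from lipoproteins, rose from 53732, 60997 and 66339.9 to 153602, 116348, 130870.0, 124933 and 142898 (1.15 ± 0.10, adjusted p = 1.74e-09). Gpihbp1, which holds it on the capillary wall, rose (0.72 ± 0.11, adjusted p = 8.33e-06), and Angptl4, which inhibits it, fell by 0.60 (adjusted p = 0.00304, and 0.0825 without the muscle-rich mice). The fatty acid transporter Slc27a1 fell from 2913, 3716 and 4413 to 2868, 1345, 2079.7, 1209.9 and 1053 (-1.21 ± 0.18, adjusted p = 5.35e-06). Its groups did not overlap, though mouse 1 came close to the lowest RT mouse.

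Glycerol and triglyceride synthesis also had 6 members higher and 6 lower, of 20. Gk, glycerol kinase, rose from 1463, 2312 and 4147 to 31551, 20409.9, 23696, 18308 and 24457 (3.29 ± 0.24, adjusted p = 4.01e-11), among the 10 largest gains in counts. Gpam, the first acyltransferase of glycerolipid synthesis, rose (1.92 ± 0.18, adjusted p = 2.62e-09). The last step showed opposite enzymes: Dgat1 rose from 1725, 1808 and 2334 to 4139, 2478, 3661, 3612 and 3772 (0.88 ± 0.14, adjusted p = 1.73e-05) and Dgat2 fell from 32839.6, 47378 and 51664 to 6924, 9046, 8543, 5141 and 7104 (-2.62 ± 0.20, adjusted p = 7.37e-11). At RT the mean count per kilobase of transcript was 14521 for Dgat2 and 623 for Dgat1, and at 4°C 2385 and 1156. Pck1, an enzyme of the route from pyruvate to glycerol phosphate, fell by 0.70 (adjusted p = 6.09e-07) without overlap.

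Lipolysis and lipid droplet proteins were more often lower, 11 of 21, than higher, 5 (median -0.32). Receptors that restrain lipolysis through Gi proteins fell. Hcar2, for niacin and ketone bodies, fell from 68.5, 84.6 and 150.1 to 6.07, 7.59, 8.71, 4.41 and 8.02 (-3.57 ± 0.25, adjusted p = 2.44e-11). Adora1, for adenosine, fell from 1377, 1554 and 1872 to 368, 299, 256, 264 and 335 (-2.41 ± 0.16, adjusted p = 1.59e-11), and Hcar1, for lactate, from 383, 509 and 736 to 12.1, 28.8, 22.4, 22.0 and 13.6 (-4.68 ± 0.26, adjusted p = 6.48e-13). Every cold mouse was below every RT mouse in these 3 receptors. Lipe, hormone-sensitive lipase, fell (-1.62 ± 0.12, adjusted p = 4.28e-11), and G0s2, the inhibitor of the first triglyceride lipase (-1.64 ± 0.33, adjusted p = 2.49e-04). Abhd5, which activates that lipase, rose (0.92 ± 0.09, adjusted p = 1.64e-08), and Plin2, a droplet coat protein (1.04 ± 0.10, adjusted p = 6.70e-09). Plin5 fell by 0.61 (adjusted p = 2.24e-04).

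De novo lipogenesis had the lowest median of the lists, -0.67, with 16 of 25 members lower and 2 higher. In all, 18 were called, and 11 without the muscle-rich mice. Srebf1, which encodes the transcription factor of this pathway, fell from 1649, 2472 and 2795 to 307, 407, 398, 251 and 355 (-2.78 ± 0.16, adjusted p = 9.55e-13). Thrsp, a lipogenic nuclear protein, fell from 45174, 49224 and 57425 to 7094, 13223, 6441, 4354 and 3369 (-3.02 ± 0.24, adjusted p = 2.14e-10). Both were without overlap. Pnpla3, an SREBP target, was at 1441, 2019 and 3398 at RT and at 62.7, 942, 116, 72.0 and 52.1 at 4°C (-4.15 ± 0.62, adjusted p = 5.67e-06), with mouse 2 well above the other cold mice. The enzymes themselves overlapped: Acly, which makes acetyl-CoA in the cytosol, was at 13089.8, 31382 and 37667 at RT and 17895, 27058, 9497, 4725 and 2509.8 at 4°C (-1.59 ± 0.51, adjusted p = 0.0129). Fasn was at 135614, 196963 and 235980.0 and 132019, 159787, 141758, 101473 and 54513 (-0.73 ± 0.26, adjusted p = 0.0241). For Scd1 the values were 200220.0 to 392751 and 128084 to 275199, and it missed the threshold (-0.56 ± 0.23, adjusted p = 0.0533).

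The calls for Acly and Fasn depended on single mice. Without mouse 5 at 4°C neither Acly (-1.14, adjusted p = 0.0636) nor Fasn (-0.47, adjusted p = 0.115) passed, and without RT mouse 3 Fasn did not (-0.66, adjusted p = 0.0541). Neither passed without the muscle-rich mice, Acly at -1.03 (adjusted p = 0.167) and Fasn at -0.42 (adjusted p = 0.302). Scd1 passed with the replicate block (adjusted p = 0.00698), with libraries scaled to the 75th percentile (0.0190), with DESeq2 (0.0302) and edgeR (0.0443), among genes with a mean of 50 or more (0.0413) and without cold mouse 2 (0.0265) or 3 (0.0242) or RT mouse 5 (0.0273) or 6 (0.0309), and not without the muscle-rich mice (-0.29, adjusted p = 0.472). The sterol branch had 5 of 24 members higher and 6 lower (median -0.08), near the shares of all genes. Sqle, squalene epoxidase, rose (1.08 ± 0.28, adjusted p = 0.00294), while Fdft1, which makes squalene, fell (-1.95 ± 0.16, adjusted p = 5.52e-10).

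Genes of glucose uptake and glycolysis had 7 of 30 members higher, 23.3%, near the 22.3% of all genes. Lower were 2 of them, 6.67% against 23.7%. The list median was 0.14, and 0.03 after scaling to the 75th percentile. Members ran from -1.49 to 1.49, with 4 called at least 2-fold higher and 1 at least 2-fold lower. Slc2a1, the glucose transporter GLUT1, rose from 32.0, 53.5 and 70.5 to 162, 149, 117, 159 and 140.3 (1.49 ± 0.16, adjusted p = 2.71e-08). Hk2, which traps glucose in the cell, rose (1.37 ± 0.17, adjusted p = 3.55e-07) and Pfkp, a phosphofructokinase (1.48 ± 0.11, adjusted p = 1.34e-10). All 3 were without overlap. Around pyruvate dehydrogenase, the kinase Pdk4, which shuts the enzyme, rose from 13521, 17548 and 18997 to 52832, 41248, 42711, 42064 and 34994 (1.32 ± 0.14, adjusted p = 1.63e-08), the kinase Pdk2 fell by 0.67 (adjusted p = 1.79e-06) and the phosphatase Pdp2, which opens it, rose by 0.90 (adjusted p = 2.35e-06). The whole list of 13 had 2 higher and 3 lower, and 3 in all were called without cold mouse 5 and 3 without the muscle-rich mice.

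Mitochondrial genes of the nucleus shifted downward by small amounts. Of 80 subunits of the respiratory chain and ATP synthase, 38 were lower and 1 higher, none by 2-fold, with a median of -0.25. Ndufv3, a complex I subunit, fell from 3744, 4173 and 6187 to 3244, 2977, 2993, 2786 and 2650.2 (-0.64 ± 0.11, adjusted p = 4.58e-05). This count was the most movable of all lists: 62 were called, all lower, with libraries scaled to the 75th percentile, and the number called was 12 with only control mice in the fit, 7 without the muscle-rich mice, 15 without RT mouse 1, 16 without RT mouse 6, 24 without cold mouse 2 and 23 without cold mouse 4. The mitochondrial ribosome had 34 of 76 members lower and 7 higher (median -0.23, 26 called without the muscle-rich mice), with Mrpl49 (-1.15 ± 0.14, adjusted p = 4.22e-07) the only 2-fold call. The median of the mitochondrial genome's 8 measured coding transcripts was 0.19 and none was called (2 without RT mouse 1, 1 without RT mouse 6), mt-Nd1 for example at 321896 to 689073 at RT and 456908 to 787606 at 4°C.

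Enzymes of mitochondrial fatty acid oxidation had 10 of 24 members lower and none higher (median -0.19). Hadh, which carries out the third step of β-oxidation, fell (-0.55 ± 0.09, adjusted p = 2.06e-05), and Etfb, which passes the electrons on (-0.63 ± 0.12, adjusted p = 9.40e-05). Of the citrate cycle 9 of 19 were lower and 1 higher (median -0.16), a total of 10 that became 6 with only control mice and 5 without the muscle-rich mice. For the breakdown of branched-chain amino acids 9 of 22 were lower and 3 higher, and 5 in all were called without the muscle-rich mice. Of 12 genes of the uniporter and mitochondrial calcium exchange 3 were higher and 1 lower (1 called without the muscle-rich mice). The inner membrane protein Letm1 rose (1.19 ± 0.29, adjusted p = 0.00124, and 0.0761 without the muscle-rich mice), and the exchanger Slc8b1 fell by 0.58 (adjusted p = 0.00603).

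The integrated stress response (ISR), in which kinases slow protein synthesis and ATF4 switches on amino acid genes, had 21 of 33 measured members higher and 4 lower (median 1.10). Averaged over the list relative to the RT mean, the 6 RT mice lay between -0.08 and 0.05 on the log2 scale and the 5 cold mice between 1.17 and 1.40. Atf4 itself was at 536, 619.9 and 695 at RT and 2978, 3015, 2769, 3071 and 3128 at 4°C (2.30 ± 0.11, adjusted p = 3.89e-14). Atf3, its target, went from 3.97, 9.56 and 15.5 to 771, 455, 342, 334 and 356 (5.49 ± 0.37, adjusted p = 1.21e-11), and Fgf21, a hormone of energy balance, from 0 to 5 reads per mouse to 30, 77, 76, 91 and 256 reads (adjusted p = 1.60e-07). Trib3 rose (1.54 ± 0.20, adjusted p = 6.17e-07). Asns, asparagine synthetase, rose (0.38 ± 0.11, adjusted p = 0.00459), and the call was lost with quantile normalization (adjusted p = 0.0618) and without the muscle-rich mice (adjusted p = 0.0621). Ddit3 (CHOP) was at 119 to 183 at RT and 136 to 226 at 4°C (adjusted p = 0.469). Psph, the last enzyme of serine synthesis, fell (-1.16 ± 0.16, adjusted p = 1.78e-06), and Eif4ebp1, a translation inhibitor (-1.06 ± 0.10, adjusted p = 2.82e-09).

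Amino acid transporters had 10 of 26 members higher and 5 lower. Slc7a8, a carrier of large neutral amino acids, rose from 19.8, 71.8 and 114 to 4007, 1134, 1956, 2789 and 1874 (5.24 ± 0.43, adjusted p = 3.22e-10). Its partner subunit Slc3a2 rose from 489.8, 712 and 776 to 8765, 4618, 5775, 4971 and 4974 (3.13 ± 0.17, adjusted p = 4.50e-13). Slc7a1, which carries arginine and lysine, rose from 8.28, 15.0 and 33.9 to 188, 141, 187, 223 and 298 (3.56 ± 0.28, adjusted p = 2.28e-10). These 3 were without overlap, and in Slc7a8 and Slc3a2 mouse 1 was the highest. Slc1a5, which carries glutamine, fell from 2516, 5404 and 7582 to 1918, 475, 1037, 814 and 979 (-2.29 ± 0.33, adjusted p = 2.61e-06).

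Among 20 cytosolic aminoacyl-tRNA synthetases, which load amino acids onto tRNAs, 13 were higher and none lower (median 0.69), although 2 were called lower when libraries were scaled to the 75th percentile. Nars rose from 756, 800.3 and 912 to 1820.5, 1753, 1796, 1717 and 1886 (1.13 ± 0.09, adjusted p = 1.12e-10), Iars (1.17 ± 0.11, adjusted p = 6.75e-09) and Aars (1.06 ± 0.08, adjusted p = 9.49e-11). None of the 3 overlapped. Mars, for methionine, was at 682 to 908 and 607 to 799 (adjusted p = 0.0844).

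ATF4 with a C/EBP partner binds the C/EBP-ATF response element (CARE), here searched as TGATGCAA on both strands. It was in 0.561% of the windows of tested genes (0.929% of all windows), in 1.45% of those called at least 2-fold higher and in 0.421% of those at least 2-fold lower. The ISR list held it in 5 of 29 windows, in Atf3, Chac1, Nupr1, Fgf21 and Slc7a11, and the synthetases in 4 of 12, in Aars, Iars, Tars and Yars. The stretches of Atf3, Fgf21 and Aars are shown because these genes span the largest and the modest rises. The capitals mark TTGCATCA, which is the same site read on the other strand. They lie at chr1:191183396-191183483, minus strand (110 bases before the start), chr7:45615582-45615669, minus strand (139 bases) and chr8:111033690-111033777, plus strand (112 bases).
Atf3: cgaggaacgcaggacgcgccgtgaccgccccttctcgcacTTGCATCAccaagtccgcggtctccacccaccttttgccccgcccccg
Fgf21: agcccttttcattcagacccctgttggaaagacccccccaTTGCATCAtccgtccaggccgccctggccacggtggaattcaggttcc
Aars: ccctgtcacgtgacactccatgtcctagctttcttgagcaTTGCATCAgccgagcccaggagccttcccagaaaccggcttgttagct
Of these 9 genes, Nupr1 was lower at 4°C (-0.59 ± 0.19, adjusted p = 0.0111, and 0.0586 without the muscle-rich mice), and the other 8 were called higher.

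Genes of ribosome assembly and translation were mostly higher. Of 48 nucleolar ribosome biogenesis genes 36 were higher and 1 lower (median 0.60), and of 42 translation initiation factors 25 were higher and 2 lower (median 0.32). Eif1a, which scans for the start codon, rose from 441, 459 and 530.3 to 2140.1, 2361, 2459, 2011 and 2135 (2.23 ± 0.11, adjusted p = 1.39e-13). Rrp12, for ribosome export, rose (1.83 ± 0.15, adjusted p = 3.18e-10) and Nop2, an rRNA methyltransferase (1.39 ± 0.09, adjusted p = 1.06e-11), and both were without overlap. Dkc1, the pseudouridine synthase, was the member that fell (-0.88 ± 0.11, adjusted p = 8.01e-07). Of 82 cytosolic ribosomal proteins 5 were higher and 3 lower (median -0.06). That total of 8 became 3 without the muscle-rich mice, 15 with quantile normalization and 13 with scaling to the 75th percentile, there 3 higher and 10 lower. Counts of ribosomal protein genes are uncertain, since their many processed pseudogenes share sequence with them.

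Cytosolic chaperones were widely higher. Of 28 heat shock genes 20 were higher and 1 lower, with a median of 1.19, the next highest after the MAPK list. Hspa8, the constitutive HSC70, rose from 1295, 1519 and 2535 to 13425, 9977, 11874, 11416 and 10860.4 (2.81 ± 0.15, adjusted p = 4.50e-13). Hsph1, its exchange factor, rose from 136, 341 and 1285 to 2787, 2117, 2615, 1643 and 1767 (2.52 ± 0.43, adjusted p = 3.03e-05). Hsp90aa1 rose (2.02 ± 0.29, adjusted p = 2.90e-06) and Bag3, a co-chaperone of selective autophagy (1.95 ± 0.11, adjusted p = 1.06e-12), all without overlap of the groups. Hspa1a, the inducible HSP70, had 0 to 7 reads per mouse at RT and 15, 74, 22, 20 and 37 at 4°C (adjusted p = 3.59e-06), so it was raised but remained low. Hspa1a and its neighbour Hspa1b are near-identical, and only unique reads were counted, so the counts of both are uncertain.

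The unfolded protein response of the ER was split, with 12 of 31 genes higher and 7 lower (median 0.17, 0.01 after quantile normalization). Dnajb9, an ER co-chaperone, rose from 795, 899 and 996 to 4830.3, 3361, 2745, 2696 and 2823 (1.84 ± 0.12, adjusted p = 1.42e-11). Hspa5 (BiP), the main ER chaperone, rose (0.78 ± 0.10, adjusted p = 7.85e-07) and Manf, a secreted ER protein (1.21 ± 0.15, adjusted p = 4.79e-07). The disulfide isomerases Pdia4 (-1.15 ± 0.14, adjusted p = 4.09e-07) and Pdia6 (-0.80 ± 0.09, adjusted p = 1.61e-07) fell. In each of these 5 genes the groups were apart. The ER stress element (ERSE), CCAAT and CCACG with 9 bases between them on either strand, was in 8 of the list's 27 windows (Hspa5, Hsp90b1, Dnajc3, Pdia6, Calr, Canx, Syvn1 and Creld2) and in 0.160% of the windows of tested genes. Hspa5 and Pdia6 are shown, since they carry it and moved apart, at chr2:34771985-34772083, plus strand (65 bases before the start) and chr12:17266451-17266549, plus strand (98 bases), with the element in capitals.
Hspa5: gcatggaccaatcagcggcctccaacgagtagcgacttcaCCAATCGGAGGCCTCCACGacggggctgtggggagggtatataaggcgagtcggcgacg
Pdia6: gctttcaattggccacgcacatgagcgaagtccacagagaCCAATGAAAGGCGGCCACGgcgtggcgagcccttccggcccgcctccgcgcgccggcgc

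Protein disposal was higher by small steps. Of 32 proteasome subunits 17 were higher and 1 lower (median 0.27), and of 40 autophagy genes 18 were higher and 6 lower (median 0.25, with 16 higher and 12 lower after scaling to the 75th percentile). Psmd3, of the 19S cap, rose (1.38 ± 0.32, adjusted p = 8.73e-04) but overlapped. Atg101, which starts autophagosomes, rose from 410.2, 438 and 495 to 1746, 982, 1431, 1408 and 1091 (1.55 ± 0.13, adjusted p = 3.00e-10). Gabarapl1 rose (1.10 ± 0.11, adjusted p = 6.70e-09) and Sqstm1 (p62), a cargo receptor (0.94 ± 0.12, adjusted p = 4.57e-07), while Atg10 fell (-0.89 ± 0.14, adjusted p = 1.46e-05).

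The clock list had 10 of 19 genes higher and 6 lower. Arntl (BMAL1), the positive arm, rose from 3.78, 6.89 and 15.5 to 243, 206, 294, 189.5 and 299.9 (4.84 ± 0.39, adjusted p = 3.08e-10). Its partner Clock rose (1.21 ± 0.10, adjusted p = 5.55e-10) and Nfil3, a repressor of D-box genes, from 37.2, 119 and 133 to 669.5, 533, 702, 526 and 596 (2.71 ± 0.29, adjusted p = 3.33e-08). Hlf, a D-box activator, fell from 371, 412 and 461 to 127, 124, 101, 97.7 and 97.8 (-1.91 ± 0.15, adjusted p = 1.27e-10). These 4 genes were without overlap. Per1 rose by 0.66 (adjusted p = 5.43e-04) with overlap. The hour of collection was not given in the sources used here.

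Per3, a member of the negative arm, had 2001, 2093 and 2604 at RT and 233, 311, 351, 262 and 259 at 4°C (-2.97 ± 0.10, adjusted p = 3.75e-17). The D-box, TTATGTAA on either strand, was in 0.511% of the windows of tested genes, in 0.842% of those called at least 2-fold lower and in 0.526% of those at least 2-fold higher. Per3 held it at 2 places, 205 and 158 bases before the start, and is shown for that, at chr4:151044776-151044910, minus strand, with both in capitals.
Per3: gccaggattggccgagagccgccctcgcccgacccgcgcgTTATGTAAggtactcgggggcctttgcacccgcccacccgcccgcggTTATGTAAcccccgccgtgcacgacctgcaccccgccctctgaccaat

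Of 34 nuclear receptors 10 were higher and 11 lower (median 0.07, -0.04 after scaling to the 75th percentile). Steroid receptors did not move alike. Esr1, the oestrogen receptor, fell from 639, 724 and 1065 to 259, 119.9, 85.9, 87.4 and 94.6 (-2.72 ± 0.22, adjusted p = 3.18e-10). Nr3c2, the mineralocorticoid receptor, fell from 168, 250.1 and 343 to 40.5, 50.1, 33.6, 31.6 and 60.1 (-2.52 ± 0.18, adjusted p = 4.04e-11). Neither overlapped. Nr3c1, the glucocorticoid receptor, was at 867 to 1145 and 935 to 1276 (adjusted p = 0.407). Of 36 cold shock and splicing genes 12 were higher and 4 lower. Cirbp, named for its induction by cold, was at 264, 323 and 472 at RT and 429, 156, 157, 179 and 117 at 4°C (-0.85 ± 0.27, adjusted p = 0.0105), with mouse 1 far above the other cold mice, and without the muscle-rich mice the value was -0.37 (adjusted p = 0.429). Rbm3, its relative, was at 246 to 361 and 281 to 381 (adjusted p = 0.108, and 0.0439 without cold mouse 3 or 0.0487 without RT mouse 6). Mbnl2, a splicing regulator, rose (1.49 ± 0.09, adjusted p = 2.64e-12), and Rbfox2, another, fell (-1.40 ± 0.15, adjusted p = 3.47e-08).

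Genes that glucocorticoids induce had 12 of 19 members higher and 3 lower (median 0.89). Sgk1, a kinase, rose from 973, 1065 and 1701 to 3944, 3627, 3475, 4411 and 3554 (1.74 ± 0.16, adjusted p = 2.07e-09), and Klf15, a regulator of amino acid catabolism (1.71 ± 0.17, adjusted p = 8.66e-09). Mt2, a metallothionein that binds zinc, rose from 288, 479 and 684 to 3708, 1439, 1627, 2310.3 and 1484 (2.07 ± 0.31, adjusted p = 4.51e-06) and Mt1 (1.37 ± 0.23, adjusted p = 2.44e-05). Tsc22d3 (GILZ), often used as a marker of the hormone, was at 579.7 to 2239.6 at RT and 1305 to 1874 at 4°C (adjusted p = 0.488). The NRF2 and antioxidant list was near the shares of all genes, with 8 of 28 higher and 6 lower, and in it Hmox1, haem oxygenase, rose from 62.1, 80.5 and 110.2 to 3060.4, 646, 1208, 1422 and 2492 (4.21 ± 0.29, adjusted p = 1.72e-11). Among 23 hypoxia genes 10 were higher and 2 lower. P4ha1, a collagen hydroxylase, rose (2.36 ± 0.24, adjusted p = 1.85e-08), as did Vegfa (0.82 ± 0.15, adjusted p = 8.02e-05).

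Insulin signalling had 13 of 38 genes higher and 10 lower (median 0.19). The receptor substrates moved apart. Irs2 rose from 212, 233 and 335 to 1713, 1112, 1362, 1562 and 1481 (2.51 ± 0.20, adjusted p = 2.67e-10), and Irs3 fell from 246, 308 and 387 to 26.3, 80.4, 29.9, 29.4 and 28.1 (-3.09 ± 0.26, adjusted p = 4.24e-10). Pik3r1, the regulatory subunit of PI3-kinase, fell from 824, 1021 and 1486 to 186, 205, 225, 188 and 222 (-2.38 ± 0.14, adjusted p = 1.95e-12), and Akt2, the kinase downstream, from 2166, 2314 and 2605 to 900.1, 1006, 1042, 848 and 892 (-1.33 ± 0.10, adjusted p = 8.17e-11). All 4 were without overlap.

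Of 30 adipokines and batokines 8 were higher (26.7%, against 22.3% of all genes) and 9 lower, against 23.7%, and 11 in all were called among genes with a mean of 50 or more. Lep, leptin, was at 100.1, 163 and 433 at RT, from 92 to 447 reads per mouse, and at 2, 0, 0, 0 and 3 reads in mice 1 to 5 at 4°C (adjusted p = 2.08e-09). No fold is given, since every cold mouse was at 3 reads or fewer. Bmp8b, a brown fat signal, had 1 to 7 reads at RT and 12, 24, 15, 53 and 66 at 4°C (adjusted p = 1.20e-05). Igf1 fell (-1.82 ± 0.24, adjusted p = 7.87e-07), and Edn1, endothelin, rose (1.85 ± 0.27, adjusted p = 3.36e-06). Nrg4, a neuregulin of BAT, was at 2822 to 3242 and 2545 to 3348 (-0.01, 95% interval -0.17 to 0.14).

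Of 46 extracellular matrix genes 11 were higher (23.9%, against 22.3% of all genes) and 2 lower (4.35% against 23.7%), with a median of 0.17. Col4a1, a basement membrane collagen, rose from 1317, 1976 and 2483 to 5880.1, 3984, 5329, 7118 and 8451 (1.63 ± 0.18, adjusted p = 6.29e-08), Col4a2, its partner (2.01 ± 0.26, adjusted p = 8.50e-07) and Lox, which cross-links collagen (1.85 ± 0.19, adjusted p = 1.54e-08), while the laminin chain Lama4 fell (-1.02 ± 0.14, adjusted p = 2.56e-06). Of 13 endothelial markers 6 were higher and 3 lower, and their sum was 8541 to 10437 at RT and 12440 to 18931 at 4°C. Pecam1 rose (0.93 ± 0.11, adjusted p = 1.80e-07), and Aplnr, the apelin receptor of sprouting endothelium, fell from 156, 269.6 and 358 to 3.73 to 17.6 (-4.75 ± 0.28, adjusted p = 1.20e-12). Cdh5 was at 396 to 704 and 514 to 826 (adjusted p = 0.0770, 0.0374 without cold mouse 1 and 0.0235 without RT mouse 5). Of 25 proliferation genes 3 were higher and 9 lower, among them Cdk6, which fell from 546, 696 and 904 to 105, 209, 132, 148 and 127 (-2.30 ± 0.16, adjusted p = 2.30e-11). Of 11 macrophage markers 4 were higher.

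**Figure D2:**
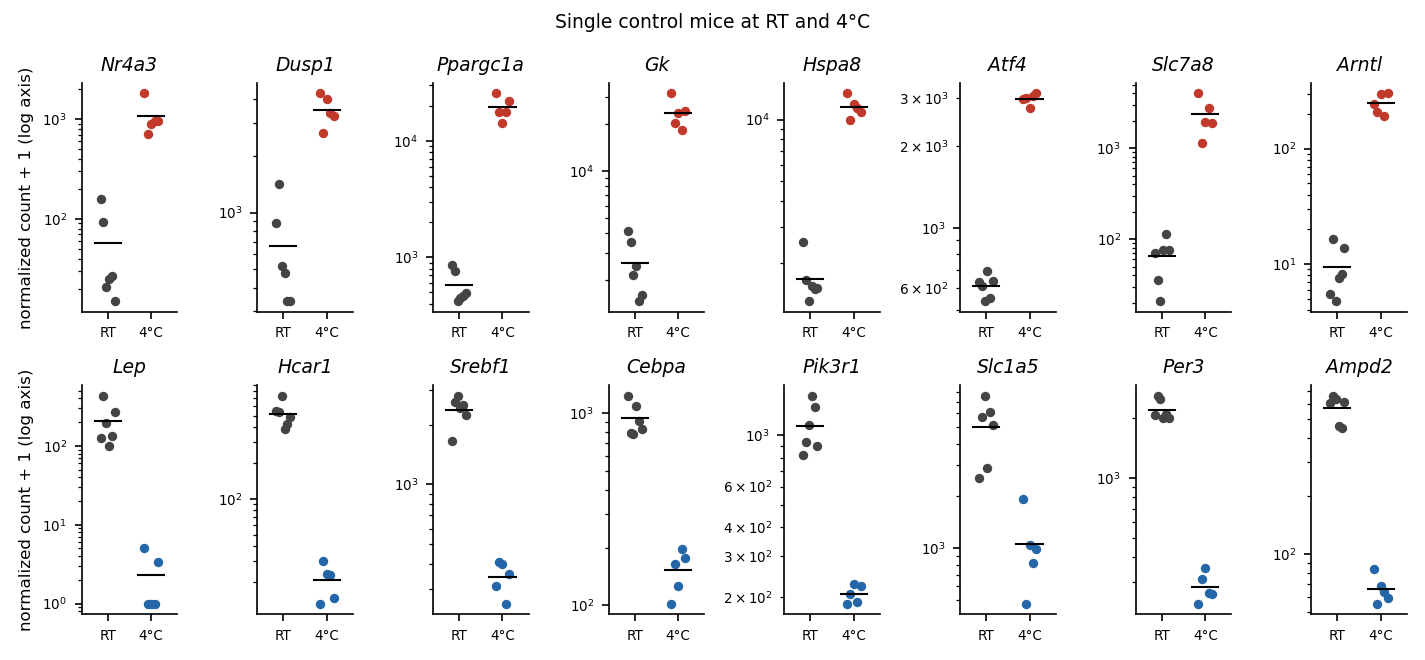
Normalized count + 1 (vertical log axes) of 16 genes in each control mouse at RT (6 dark points) and 4°C (5 coloured points). Bars are the group means of the normalized counts, not of their logarithms, with 1 added. In the upper row all cold mice lie above all RT mice and in the lower row below them, with Atf4 between 536 and 695 at RT and between 2769 and 3128 at 4°C, each before 1 was added.

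Among genes with a mean of 100 or more, the 12 with the largest rises were Acot5, Lrrc52, Plk3, Cldn1, Atf3, 6030408B16Rik, Slc7a8, Dio2, Ppargc1a, Trim63, Arntl and RP23-385G21.1. Acot5, an acyl-CoA thioesterase, had 1 to 6 reads per mouse at RT and 661, 293, 456, 307 and 383 normalized counts at 4°C (adjusted p = 5.85e-10). Lrrc52, a subunit of potassium channels, had 0 to 11 reads at RT and 267, 226, 358, 307 and 672 normalized counts at 4°C (adjusted p = 3.80e-11). Trim63, a ubiquitin ligase of muscle, was at 16.2, 827, 7.47, 247 and 925 in cold mice 1 to 5, highest in the muscle-rich mice 2, 4 and 5, and without them it lost its call (1.63, adjusted p = 0.325).

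The 12 largest falls were Lep, Klhdc7a, Aplnr, Hcar1, Pnpla3, A530016L24Rik, Angpt1, Tusc5, Lrrc15, Gprin3, Rasl12 and Ampd2. Angpt1, a ligand of vessel stability, fell from 118, 189 and 265 to 16.2, 10.6, 18.7, 14.7 and 13.6 (-3.60 ± 0.24, adjusted p = 1.34e-11). Tusc5, a protein of glucose transporter traffic, fell from 5649.7, 6753 and 8319.7 to 498, 524, 1027, 556 and 757 (-3.39 ± 0.21, adjusted p = 5.09e-12). Ampd2, AMP deaminase, fell from 448, 607 and 659 to 82.9, 54.6, 67.2, 62.4 and 58.5 (-3.11 ± 0.18, adjusted p = 9.61e-13). None of the 12 overlapped between the groups, but they were picked for the size of their fall in these same mice. Of all genes called with at least 2-fold, 70.1% were without overlap.

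In plain counts the response was concentrated. Among nuclear genes 10 held 21.9% of the summed gains in mean normalized count, and 145 held 50% of them. Of the summed losses 10 genes held 28.3% and 84 held 50%. Gmpr, which turns GMP into IMP, rose from 1117, 1837 and 4503 to 50969, 20440.3, 49649, 54502 and 88504 (4.57 ± 0.36, adjusted p = 1.99e-10), a gain of 50575 counts, behind those of Ucp1 and Lpl among nuclear genes. Car3, carbonic anhydrase 3, fell from 72948, 81806 and 126029 to 57489, 26309, 42180.5, 36493 and 38954 (-1.16 ± 0.18, adjusted p = 9.27e-06), and Tkt, transketolase (-0.99 ± 0.17, adjusted p = 4.05e-05). Mitochondrially encoded features and an rRNA were among the 10 largest gains or losses in counts too (mt-Rnr2, mt-Nd1, mt-Nd5, mt-Co1 and Rn18s-rs5), and none of them passed the test.

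Among the genes that the authors kept, few were near zero in a group. At 3 reads or fewer in every RT mouse and above in every cold mouse stood 13 genes, and the reverse held for 28. To be kept, a gene had to reach 8 reads in 6 or more of the 23 libraries. The 6 control libraries at RT could meet this alone, and the 5 at 4°C could not. The 2 numbers can therefore not be compared as a property of the tissue. The part of this filter, of group size and of depth in them was not tested. Bdh1, which makes and uses the ketone body 3-hydroxybutyrate, had 0 to 1 read per RT mouse and 28, 76, 67, 157 and 136 reads at 4°C (adjusted p = 9.98e-10). Kctd14 had 8 to 36 reads at RT and 0 in every cold mouse (adjusted p = 1.98e-07). With 3 reads as the limit that a count of 0 allows, the floor in a cold mouse was 2.20 to 6.07 normalized counts. Both genes were chosen after their values were seen.

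The size of the measured change varied with the level of expression. Genes were placed in 8 bins by their mean normalized count over the 11 mice. The share called rose from 20.3% of 1473 genes with a mean under 10, through 28.8%, 43.4%, 54.4% and 58.9%, to 65.5% of 905 genes between 1000 and 3000, and was 61.8% of 293 genes up to 10000 and 42.4% of 125 above. The median size of the log2 fold change was 0.62 in the lowest bin and 0.22 in the highest, falling from bin to bin except for a step from 0.36 to 0.39 between 300–1000 and 1000–3000, and the median SE from 0.50 to 0.10. With a pseudocount of 10 the first bin's median was 0.26, below the 0.42 of genes between 30 and 100, so the order among low genes depends on the pseudocount. A size without sign also takes in sampling error, which was larger in low genes, and the part of this error was not tested. The authors' read filter also selected among low genes, and its part was not tested.

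Direction varied with level as well. Under 100 counts the genes lower at 4°C outnumbered the higher, 208 against 91 under 10, 488 against 248 from 10 to 30, and 797 against 455 from 30 to 100. From 100 to 3000 the higher outnumbered the lower, most clearly between 300 and 1000, 1020 against 709, and between 1000 and 3000, 370 against 223. From 3000 to 10000 it was 84 higher and 97 lower, and above 10000 15 higher and 38 lower. Among calls of at least 2-fold the share that was lower fell from 69.8% under 10 to 13.2% between 3000 and 10000 (33 higher, 5 lower), and was 40% above (9 higher, 6 lower). edgeR gave 120 higher and 175 lower under 10, and 1015 against 724 between 300 and 1000, the same sides as limma. With libraries scaled to the 75th percentile 2644 genes were called higher and 4281 lower, against 3269 and 3466. The bins were not counted under that scaling, so whether each keeps its side there is not known. Cold mice 1, 2 and 3 had shallower libraries than every RT mouse, and the part of depth in these counts was not tested.

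**Figure D3:**
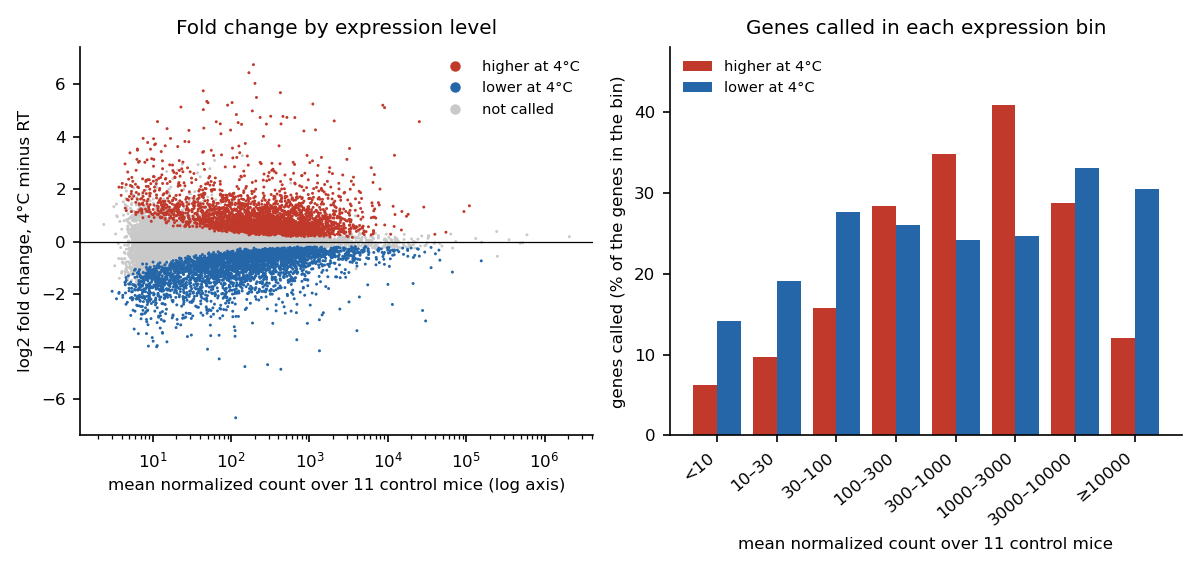
Left, log2 fold change (vertical, 4°C minus RT) of each of 14651 genes against its mean normalized count over 11 control mice (log axis), red and blue where called. Right, the percentage of genes called higher (red bars) and lower (blue bars) in each bin of that mean, which cross between the bins 30–100 (15.8% and 27.6%) and 300–1000 (34.8% and 24.2%) and again above 3000.

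Kinds of transcript differed in direction too, and their levels of expression were not compared here. Of all 14651 genes tested 3269 were higher and 3466 lower. Of 12038 protein-coding genes 2958 were higher and 2994 lower. Of 228 lincRNAs 25 were higher and 65 lower, and of 341 antisense transcripts 36 and 96, whereas of 478 processed pseudogenes 38 were higher and 15 lower. Reads were counted irrespective of strand, so those of antisense and overlapping genes cannot be told from their partners. Pseudogenes share sequence with their parents, and only unique reads were counted, so their counts are uncertain. By exonic length, the fifth of genes with the shortest transcripts had 13.7% higher and 24.0% lower, and the fifth with the longest 30.1% higher and 20.4% lower. Length and level are related across genes, and they were not separated here.

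Single mice could be told apart by temperature in most strong genes. In 3697 genes, 25.2% of those tested, all 5 cold mice were on the same side of all 6 RT mice, 1901 of them higher (13.0%) and 1796 lower (12.3%). Of called genes 54.5% were without overlap, and of those called with at least 2-fold 70.1%, so 744 called genes of that size still overlapped. Another 28 genes were without overlap but not called. Without the 3 muscle-rich mice 5563 genes did not overlap, a count that fewer mice make larger by itself.

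On the first principal component, 38.6% of the variance of all genes, every RT mouse was on the opposite side from every cold mouse. A position on the cold axis was computed for each mouse from the other mice, with 0 at the RT mean and 1 at the 4°C mean. RT mice lay between -0.002 and 0.131, cold mice 1 to 5 at 0.769, 0.892, 0.794, 0.966 and 0.955, and the gap between the groups was 0.638. Pearson correlations over all genes were 0.956 to 0.973 between RT mice, 0.918 to 0.971 between cold mice and 0.883 to 0.928 across. They are across genes, which are not independent replicates.

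Cold mice differed more among themselves than RT mice. Mouse 1 at 4°C, the shallowest library, stood apart on the second component (12.9% of variance) at 94.2, where the other cold mice were at -33.2 to -1.81 and RT mice at -55.6 to 51.2. It differed at least 2-fold from the mean of its own group in 2141 genes, against 994 to 1570 in the other cold mice and 772 to 1063 at RT. Its share of the 2-fold genes that lay nearer the RT mean was 13.5%, the highest of the 11 mice, which otherwise ranged from 3.90% to 10.2% for the share nearer the other group. These genes had been called with every mouse included, also the one placed, so the shares are not independent of the calls. The part of depth in the distance of mouse 1 was not tested. Without mouse 1, 6562 genes were called, 6124 of them also called in the same direction with all mice.

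**Figure D4:**
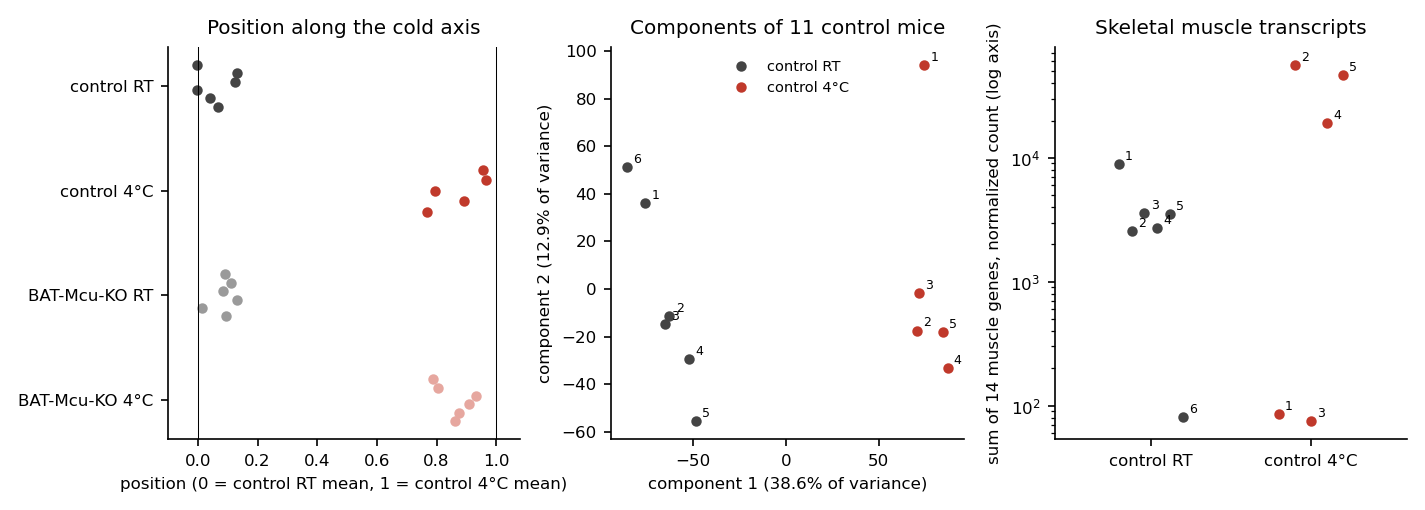
Left, position of each mouse along the cold axis (0 at the control RT mean, 1 at the control 4°C mean) in the 4 groups of the series. Centre, the first and second principal components of the 11 control mice, numbered by replicate. Right, the summed normalized count of 14 skeletal muscle genes in the same mice (log axis). The groups are separate on the cold axis, while muscle transcripts run from 74.7 to 56348 at 4°C and from 80.4 to 8935 at RT.

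The same exposure in BAT-Mcu-KO mice, which are other animals, gives another set of values. Of the 6735 genes called in control mice 5092, 75.6%, were called in the same direction there, which was 80.2% of the 6349 called in BAT-Mcu-KO, and 98.4% had the same sign. At least 2-fold control calls were shared in 83.7%. No gene was called for a difference of the response between genotypes by limma (878 at an unadjusted p under 0.05, smallest adjusted p 0.700) or by edgeR, and DESeq2 called 28. On the control cold axis, BAT-Mcu-KO mice at RT lay between 0.015 and 0.132 and those at 4°C between 0.788 and 0.932. List medians there were 1.38 for the MAPK phosphatases, 0.92 for heat shock genes and -0.65 for lipogenesis, where control mice had 1.57, 1.19 and -0.67, and the ISR median was 0.41 against 1.10. Of the 33 ISR genes limma and edgeR called none for a difference between genotypes, with 11 at an unadjusted p under 0.05 by limma. DESeq2 called 1 of them, Mthfd2, an enzyme of mitochondrial folate metabolism (2.89 with the control genotype and 1.02 with Mcu deleted by DESeq2, adjusted p of the difference = 0.0158). Its other calls included Egr1 (-2.61 with the control genotype and 0.47 with Mcu deleted by DESeq2, adjusted p of the difference = 0.0158) and genes of muscle sarcomeres such as Tnnc1, Myl3 and Actn2, and the part of muscle transcripts in these was not tested.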

How the data were processed

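RNA of interscapular BAT was sequenced by the authors, aligned with STAR 2.4.0j to mm10 and counted over GENCODE M7 genes with HTSeq as unique exonic reads irrespective of strand. The deposited signal values are the authors' counts divided by DESeq2 size factors, for 14651 genes. Every value was a whole number of reads times a constant per library within 0.01 reads, so depths (7129271 to 18728637 reads in the control mice) and reads were recovered from the steps. Their number limits the precision of low genes. A deposited table of the authors' own fold changes, Wald p-values and adjusted p-values was not used.

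Log2(normalized count + 1) was fitted with limma 3.58.1 (R 4.3.3) with a mean trend on the 4 groups of all 23 mice, and the control difference was taken with Benjamini-Hochberg adjustment over 14651 genes. Adjusted p-values are from this fit, called means under 0.05, and errors on log2 fold changes are SEs. The script was tested on simulated data. Promoters are RefSeq windows of GRCm38.p6, and gene types and lengths come from GENCODE M21 (93.9% of symbols matched). Alternatives were edgeR 4.0.16 and DESeq2 1.42.0 on the recovered reads, other scalings, pseudocounts and filters, control mice alone, the replicate number as a block, and each mouse left out. The setting without 3 mice was added after seeing the data.

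Members and lists were chosen with earlier results of these data known. Genes were named from a rule: the 12 largest called changes each way at a mean of 100 or more, the 10 largest gains and losses in counts, in each list its first member and the 3 largest called changes each way, any member of lists under 20, and the 5 most variable genes per group. Outside it, Akt2, Asns, Bag3, Bdh1, Btg2, Cebpb, Col4a1, Crem, Ddit3, Dgat1, Edn1, Fosl2, G0s2, Gabarapl1, Hk2, Hsp90aa1, Hsph1, Irf4, Kcnk3, Kctd14, Lipe, Manf, Mars, Mthfd2, Nop2, Nrg4, Nupr1, Pde4d, Pde7b, Plin5, Pparg, Prkaca, Prkar1a, Rbm3, Sik1, Sqstm1, Trib3, Vegfa and Zfp516 were chosen after their values were seen.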

Additional observations from a re-analysis of the deposited data

Results flagged for a closer look

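Among the genes given with values, a mouse was picked out where its gap to the nearest mouse of its group, as a share of the group's range, passed the 95% critical value of Dixon's test. This was so in 29 of 324 groups (8.95%). For normal and independent values chance picks about 1 in 20, but these were counts of genes measured in the same mice. Some genes were also chosen for their spread or after their values were seen. An excess over chance can therefore not be read from the share. Mouse 1 at 4°C, the shallowest library, accounted for 12 of the 29. Values are normalized counts, and no cause was tested. At 4°C, mouse 1 stood far above the rest of its group in Pde7b (2094), Nr4a3 (1810.4), Crem (1115), Pdp2 (3613), Atf3 (771), Slc3a2 (8765), Gabarapl1 (5542), Sqstm1 (11768), Esr1 (259), Cirbp (429) and Lox (1349). At 4°C, mouse 1 stood far below the rest of its group in Adcy9 (50.6). At 4°C, mouse 2 stood far above the rest of its group in Pnpla3 (942), Hspa1a (112) and Irs3 (80.4). At 4°C, mouse 2 stood far below the rest of its group in Etfb (1895). At 4°C, mouse 5 stood far above the rest of its group in Trib3 (437) and Mthfd2 (344). In the RT group, mouse 1 stood far above the others in Acta1 (2475), Fos (385), Hspa8 (2535) and P4ha1 (738). In the RT group, mouse 2 stood far above the others in Rrp12 (132). In the RT group, mouse 2 stood below the others in Bdh1 (0). In the RT group, mouse 3 stood far above the others in Hcar2 (150.1) and Slc8b1 (137). In the RT group, mouse 4 stood above the others in Gpr3 (1.09, which is 1 read) and Dusp14 (82.7). In the RT group, mouse 5 stood far above the others in Sgk1 (1701).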

How the results depend on the processing

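The number of genes called ranged from 6256 to 6688 when single mice were left out, the number called with at least 2-fold from 2371 to 2553, the number without overlap from 3896 to 4428 and the variance on the first component from 38.3% to 40.9%. Of genes called at least 2-fold there were 1383 among those with a mean of 50 or more and 1587 with a pseudocount of 10, against 2489, since fewer genes were tested or low genes were shrunk. With libraries scaled to the 75th percentile 38.2% of calls were higher (the median of all genes moved from -0.02 to -0.13), against 48.5%, and the cause was not tested. edgeR shared 6482 and DESeq2 6544 calls with limma in the same direction, and none was opposite. The first component held 45.1% with genes of a mean of 50 or more, 43.4% unscaled and 51.8% over the 500 most variable genes, and the gap on the cold axis was 0.718 and 0.494 under the first and the last of these. Without the 3 muscle-rich mice, a setting chosen after seeing the data, 5563 genes were without overlap, as fewer mice make likelier. For the difference between genotypes DESeq2 called 28 genes and limma and edgeR 0. Of 148 named genes that were called, 137 kept direction and call in every alternative run, 11 lost the call in at least 1, and 0 reversed. Scd1, Mars, Rbm3, Cdh5 and Acta1, not called, passed under at least 1 alternative. Acta1 did so without the muscle-rich mice (-6.52, adjusted p = 0.0378), a value that rests on 2 cold mice near 0. The difference between genotypes could not be fitted with control mice alone, and genes of low expression leave no count under a mean minimum of 50.

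A fit with the mouse number as a replicate block called 3220 genes higher and 3390 lower (6610 in all), 6416 of them also called without the block in the same direction. The numbers only name mice: same-numbered mice did not deviate together (r from -0.153 to 0.0258), and 0 of 5 cold mice correlated best with their own number.

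Depth limits the low genes, where 3 reads were worth 2.20 to 6.07 normalized counts at 4°C. How the RT mice were fed and housed over these hours was not given, and 3 of the 5 cold libraries carried more muscle RNA than any RT library.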
